A study of Mus musculus with 12 samples.

Results

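The Dlx genes were examined with their antisense partners, as the 8 rows of the deposited count table named Dlx1, Dlx2, Dlx3, Dlx4, Dlx5, Dlx6, Dlx1as and Dlx6os1, out of 24421 gene rows. All 8 symbols were found. They were measured by RNA sequencing in 12 libraries from C57Bl/6 mouse embryos with a neural crest-specific change of Eftud2, whose product is a spliceosomal GTPase. The labels give 4 groups of 3 libraries. Embryos heterozygous for the change (Eftud2+/-) serve as controls for homozygous ones (Eftud2-/-), each on embryonic days 9.0 (E9.0) and 9.5 (E9.5). No wild-type group was analysed here, so the controls also carry 1 altered allele, and no group received a treatment. The labels name neither the Cre or other driver nor how many embryos or somites stand behind a library. By its title, the series is about Mdm2 splicing, p53 activity and craniofacial defects in a mouse model of the human disorder MFDM, mandibulofacial dysostosis with microcephaly.

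Dlx genes encode homeodomain transcription factors that lie in the genome as linked, convergently transcribed pairs sharing enhancers. In the pharyngeal arches they are expressed by neural crest-derived mesenchyme in a nested pattern, with Dlx1 and Dlx2 along the whole arch, Dlx5 and Dlx6 in its lower part and Dlx3 and Dlx4 at its tip, and this nesting is known to set the identity of upper and lower jaw. Dlx1, Dlx2, Dlx5 and Dlx6 also act in the ventral forebrain, and Dlx3, Dlx5 and Dlx6 in surface ectoderm and placodes such as the ear.

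On GRCm38, the assembly also called mm10, Dlx1 (ENSMUSG00000041911.3) lies on the plus strand at chr2:71528113-71533981 and Dlx2 (ENSMUSG00000023391.8) on the minus strand at chr2:71543408-71546754, with 9426 bases between them. Dlx3 (chr11:95120119-95125296) and Dlx4 (chr11:95140447-95146263) are 15150 bases apart, and Dlx6 (chr6:6863334-6868568) and Dlx5 (chr6:6877805-6882085) 9236 bases apart. Dlx1as runs antisense across Dlx1 (chr2:71516454-71537891) and shares 335 exonic bases with it, which are 20.6% of the exonic bases of Dlx1as and 6.21% of those of Dlx1. Dlx6os1, the long noncoding RNA also known as Evf2, spans Dlx6 on the opposite strand (chr6:6820189-6871592), but 0 of its exonic bases in GENCODE M21 lie in exons of Dlx6. Dlx6os2, a further antisense row that is no member, shares 104 exonic bases with Dlx6 and had 0 to 4 counts per library. The strand setting of the counting is not given in the sources used here, so reads from the shared bases of Dlx1 and Dlx1as cannot be told apart.

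The promoter sequences of the Dlx1 and Dlx2 pair and of Dlx6os1 are shown because they were the ones in the promoter table used here. These members were called at E9.5, as was Dlx6, which had no entry. A link between the sequences and the calls was not tested. The sequences run from 250 bases before to 50 after an annotated start and are written on the gene's own strand. They come from RefSeq (GRCm38.p6) through a table in which 3 of the 8 members were matched. These starts need not be those of the GENCODE spans above. The Dlx1 window begins inside the Dlx1 span, and the Dlx6os1 span reaches further upstream than the Dlx6os1 window.
Dlx1, chr2:71529195-71529494, plus strand: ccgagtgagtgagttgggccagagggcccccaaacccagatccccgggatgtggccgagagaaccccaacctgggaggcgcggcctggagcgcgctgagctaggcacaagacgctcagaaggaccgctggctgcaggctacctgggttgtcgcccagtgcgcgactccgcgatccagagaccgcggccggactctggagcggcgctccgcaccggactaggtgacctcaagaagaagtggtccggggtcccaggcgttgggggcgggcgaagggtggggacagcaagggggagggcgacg
Dlx2, chr2:71546705-71547004, minus strand: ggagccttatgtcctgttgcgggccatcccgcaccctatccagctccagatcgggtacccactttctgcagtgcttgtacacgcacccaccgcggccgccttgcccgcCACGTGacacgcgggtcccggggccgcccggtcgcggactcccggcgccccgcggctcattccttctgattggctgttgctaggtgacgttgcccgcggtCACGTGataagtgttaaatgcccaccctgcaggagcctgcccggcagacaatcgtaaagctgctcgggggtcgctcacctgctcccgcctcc
Dlx6os1, chr6:6869484-6869783, minus strand, the upstream of 2 annotated starts: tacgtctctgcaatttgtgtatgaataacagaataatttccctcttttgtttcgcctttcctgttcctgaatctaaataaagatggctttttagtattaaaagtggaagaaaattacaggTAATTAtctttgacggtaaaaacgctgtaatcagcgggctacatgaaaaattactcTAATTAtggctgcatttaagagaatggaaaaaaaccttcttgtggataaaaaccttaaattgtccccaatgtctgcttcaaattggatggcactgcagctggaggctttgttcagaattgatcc
Capitals mark matches to either of 2 palindromic motifs, which read the same on both strands. These are TAATTA, a core bound by many homeodomain proteins including DLX factors, and CACGTG, an E-box bound by basic helix-loop-helix proteins. The Dlx6os1 window held 2 matches to TAATTA and 0 to CACGTG, the Dlx2 window 0 and 2, and the Dlx1 window 0 of each. Of 32851 mouse promoter windows of the same length, 5.29% held TAATTA and 7.15% CACGTG. The Dlx1 and Dlx2 windows were rich in G and C, at 69.3% and 66.3%, above 89.5% and 84.4% of all windows, whereas that of Dlx6os1 had 35.7%, above 4.30%. A match describes the letters only and shows no binding.

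Levels are given in CPM, a gene's counts per 1000000 counts of its library after scaling with TMM factors, which set the bulk of genes equal between libraries. The libraries held 13914543 to 31172708 counts. A single ribosomal precursor row, Rn45s, took 37.4% of heterozygous E9.0 replicate 1 and 4.40% to 16.2% of the other 11, and the TMM factor of that library was 0.664. Eftud2 itself was at 232 to 236 CPM in homozygous against 275 to 302 CPM in heterozygous libraries at E9.0 (log2 fold change −0.29, edgeR adjusted p 0.0193) and at 221 to 226 against 248 to 264 at E9.5, where the difference did not pass (−0.19, edgeR adjusted p 0.0906). The labels call the tissue neural crest cells, cranial nerve ganglia and heads in different fields. Markers of neural crest (6 genes, 145 to 301 CPM in sum) and of cranial ganglia (7 genes, 53.2 to 86.2 CPM) were detected in every library, but so were those of primitive erythroid cells (534 to 5180 CPM, with Hba-a1 at 0 in 3 groups), heart muscle (23.1 to 1420 CPM) and endothelium (151 to 298 CPM). In such mixed samples, fewer cells of a type and less RNA per cell cannot be told apart. Heterozygous E9.5 replicate 2 stood apart from its group, with 83.9 CPM in sum for 12 arch patterning factors against 156 and 158 in the other 2 libraries, and 294 CPM against 419 and 442 for 8 cranial mesenchyme markers. Calls at E9.5 are therefore also given without it, an alternative chosen for the genes outside the family after seeing the data.

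Compared per length, as CPM per kilobase of exon (RPKM), Dlx2 had the highest mean level of the family in heterozygous E9.0 libraries, at 3.02 ± 0.649 RPKM (SD, n = 3), followed by Dlx5 at 2.48 ± 0.42, Dlx3 at 1.70 ± 0.577 and Dlx6 at 1.58 ± 0.327. The ranges of neighbours among these 4 overlapped, and with the longest transcript as length Dlx5 stood above Dlx2 (3.94 against 3.49 RPKM). Dlx1 was below all 4 in every library at 0.539 ± 0.097 RPKM, Dlx6os1 was at 0.266 ± 0.0903, and Dlx1as (0.0941 RPKM) and Dlx4 (0.0358 RPKM) were near the limit of detection. The homozygous E9.0 libraries had Dlx2 (2.31 RPKM), Dlx5 (1.99), Dlx6 (1.44) and Dlx3 (1.40) above Dlx1 (0.415) and Dlx6os1 (0.289), again with overlap among the first 4. By E9.5 the heterozygous order was Dlx2 (3.70 ± 0.685 RPKM), Dlx3 (2.20 ± 0.14), Dlx5 (1.75 ± 0.177), Dlx6 (1.74 ± 0.187), Dlx1 (1.46 ± 0.278) and Dlx6os1 (1.27 ± 0.385), where Dlx5, Dlx6, Dlx1 and Dlx6os1 overlapped from neighbour to neighbour. The homozygous E9.5 order differed, with Dlx3 (1.57 ± 0.33 RPKM) and Dlx5 (1.37 ± 0.133) at the top, overlapping each other. Dlx2 (1.07 ± 0.142) and Dlx6 (0.803 ± 0.269), which overlapped, came next, then Dlx6os1 (0.433 ± 0.101), and Dlx1 at 0.169 ± 0.0437 RPKM lay below all of these in every library.

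**Figure D1:**
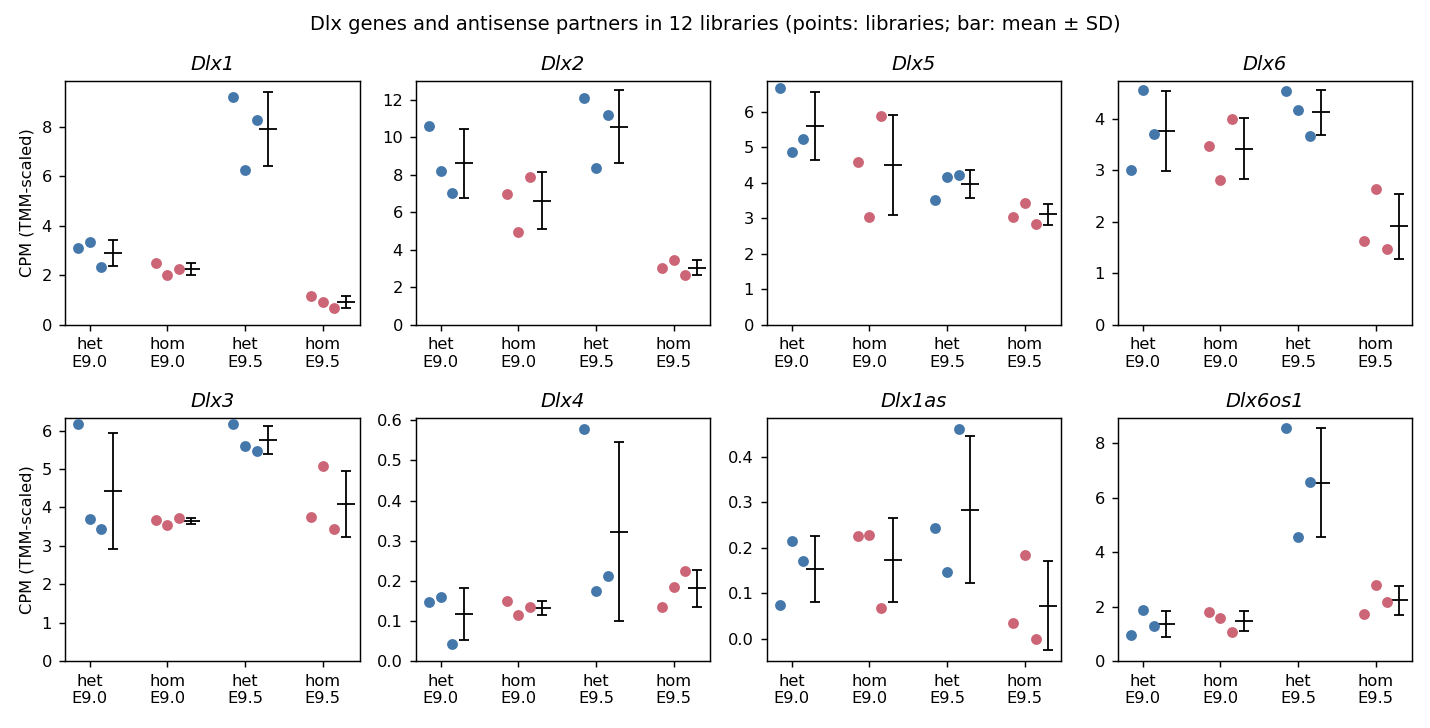
TMM-scaled CPM (vertical axis, linear) of the 8 members in each library (points) by group (horizontal axis), with the mean and SD of 3 libraries as a bar; het is heterozygous, hom is homozygous. Dlx1 reached 6.25 to 9.18 CPM in heterozygous E9.5 libraries and 0.675 to 1.15 CPM in homozygous ones, while the ranges of Dlx4 and Dlx1as, at under 1 CPM, overlapped between genotypes at both stages.

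At E9.0 the genotypes were compared to ask whether the family already differed at the earlier stage. For 0 of the 6 members that passed the filter on low counts was a difference found (edgeR's quasi-likelihood test, adjusted p over 14810 genes), where 0.587% of all tested genes passed, and 0 of the 6 had an unadjusted p under 0.05, against 13.3% of all tested genes. DESeq2 and limma-voom also called 0. Dlx1 was at 3.08, 3.33 and 2.32 CPM in heterozygous libraries, and homozygous libraries had 2.48, 2.0 and 2.23 CPM. These ranges overlapped, and the log2 difference was −0.37 ± 0.23 (SE; edgeR adjusted p 0.506). Dlx2 was at 10.6, 8.21 and 7.01 against 6.99, 4.93 and 7.90 CPM, also overlapping, with a log2 difference of −0.37 ± 0.20 (edgeR adjusted p 0.435). The log2 differences of Dlx3, Dlx5, Dlx6 and Dlx6os1 were −0.24, −0.31, −0.16 and 0.10, with SE of 0.21 to 0.35 and adjusted p of 0.528 to 0.935. Those of Dlx3 and Dlx6os1 changed sign when heterozygous replicate 1 was left out, to 0.03 and −0.07, and that of Dlx6os1 also without homozygous replicate 1 (−0.04).

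The picture at E9.5 was different. Of the 6 members tested, Dlx1, Dlx2, Dlx6 and Dlx6os1 fell in homozygous libraries and 0 rose, where 0.702% of all tested genes were called lower. The members' median log2 fold change was −1.32 at E9.5 and −0.28 at E9.0, beside −0.003 and −0.004 for all genes. For all 6 the homozygous range lay below the heterozygous one, as it did for 9.47% of all tested genes.

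Dlx1, which acts in the arches and in forebrain interneurons, had the largest fall of the family. It was at 9.18, 6.25 and 8.28 CPM in the heterozygous E9.5 libraries and at 1.15, 0.921 and 0.675 CPM in the homozygous ones, from 213 to 301 and 18 to 34 counts. Every homozygous library was thus more than 5 CPM below the lowest heterozygous library. The level was 8.54-fold lower (log2 fold change −3.09 ± 0.21, edgeR adjusted p 1.38e-06; exact permutation p 0.1, the smallest that 3 against 3 allows). Without heterozygous replicate 2 the log2 fold change was −3.24 (edgeR adjusted p 2.03e-07).

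Dlx2, its neighbour and partner in both tissues, fell less. Its heterozygous E9.5 libraries were at 12.1, 8.36 and 11.2 CPM and its homozygous ones at 3.0, 3.47 and 2.66 CPM. These groups were well separated, and the level was 3.44-fold lower (−1.78 ± 0.19, edgeR adjusted p 0.000195). Without heterozygous replicate 2 the log2 fold change was −1.92 (edgeR adjusted p 3.6e-05).

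Within the Dlx5 and Dlx6 pair, whose products specify the lower jaw, the call was split. Dlx6 was at 4.54, 4.17 and 3.66 CPM in heterozygous E9.5 libraries and at 1.62, 2.64 and 1.46 CPM in homozygous ones. The ranges were about 1 CPM apart, and the level was 2.14-fold lower (−1.10 ± 0.22, edgeR adjusted p 0.0147). This call was lost without homozygous replicate 1 (−0.98, edgeR adjusted p 0.0682) or homozygous replicate 3 (−0.94, edgeR adjusted p 0.0730), the lowest of the group, and held without heterozygous replicate 2 (−1.09, edgeR adjusted p 0.0398). Dlx5 was at 3.51, 4.17 and 4.23 against 3.04, 3.44 and 2.85 CPM. The groups touched without overlapping, but the test was not passed (log2 difference −0.35 ± 0.19, edgeR adjusted p 0.486), nor without heterozygous replicate 2 (−0.30).

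Dlx6os1, a noncoding RNA known to regulate Dlx5 and Dlx6 in the forebrain, was at 8.54, 4.55 and 6.57 CPM in heterozygous E9.5 libraries and at 1.75, 2.79 and 2.18 CPM in homozygous ones. The groups did not overlap, although the heterozygous values spread over a wider range than the gap between the groups, with replicate 2 the lowest. The level was 2.91-fold lower (−1.54 ± 0.24, edgeR adjusted p 0.00402), and the log2 fold change was −1.74 without heterozygous replicate 2 (edgeR adjusted p 0.000609).

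Dlx3, known for roles in ectoderm, hair and placenta, was at 6.16, 5.61 and 5.47 against 3.74, 5.07 and 3.45 CPM. Homozygous replicate 2 lay close to the heterozygous range, and the log2 difference of −0.49 ± 0.18 did not pass (edgeR adjusted p 0.248), nor did that without heterozygous replicate 2 (−0.50). Its linked gene Dlx4 had 19, 6 and 6 counts in heterozygous and 4, 6 and 6 counts in homozygous E9.5 libraries, and at most 3 counts in every E9.0 library. Only heterozygous replicate 1 stood out, and Dlx4 was too low for the test. Dlx1as, the antisense partner of Dlx1, had 8, 5 and 13 counts in heterozygous and 1, 6 and 0 counts in homozygous E9.5 libraries. Those ranges overlapped (exact permutation p 0.2), the count of 0 allows up to 0.113 CPM, and a difference in Dlx1as was not detectable at this depth.

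**Figure D2:**
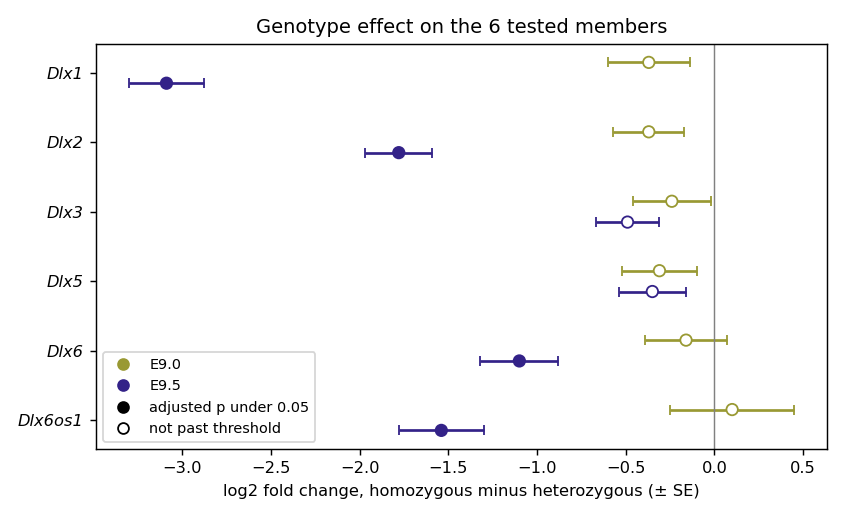
Log2 fold change of homozygous against heterozygous libraries (horizontal axis, bars are SE) for the 6 members that passed the filter, at E9.0 and E9.5; filled points passed an adjusted p of 0.05. The E9.0 points lie between −0.37 and 0.10, and the E9.5 points reach from −0.35 for Dlx5 to −3.09 for Dlx1.

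Whether the genotype effect differed between stages was tested directly as an interaction. Of the 6 tested members, Dlx1 passed, with a lower effect at E9.5 than at E9.0 (interaction −2.72 ± 0.32 on the log2 scale, edgeR adjusted p 0.00349), where 0.0608% of all tested genes were called in that direction. The interaction of Dlx2 was −1.41 ± 0.28 (edgeR adjusted p 0.120). It passed without homozygous E9.0 replicate 2 (−1.59, edgeR adjusted p 0.0387) or heterozygous E9.5 replicate 2 (−1.55, edgeR adjusted p 0.0336). Dlx6os1 (−1.63 ± 0.43, edgeR adjusted p 0.247) and Dlx6 (−0.94 ± 0.32, edgeR adjusted p 0.399) did not pass, nor did Dlx3 (−0.24) and Dlx5 (−0.03).

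The stages were then compared within each genotype, using the same libraries as above. Marker sums of other tissues differed widely between the stages. Heart muscle was at 23.1 to 143 CPM at E9.0 and 977 to 1420 CPM at E9.5. Primitive erythroid cells were at 534 to 1160 and 2780 to 5180 CPM. The part of cell makeup in the stage changes was not tested. In heterozygous embryos Dlx1 rose 2.74-fold from E9.0 to E9.5 (1.45 ± 0.19, edgeR adjusted p 3.07e-05) and Dlx6os1 rose 4.67-fold (2.22 ± 0.28, edgeR adjusted p 2.18e-05), and without heterozygous E9.5 replicate 2 the log2 changes were 1.60 and 2.43. Calls were common between stages, with 19.2% of all tested genes called higher. Dlx2, Dlx3, Dlx5 and Dlx6 had log2 differences of 0.31, 0.41, −0.48 and 0.12 that did not pass, although Dlx3 passed without heterozygous E9.0 replicate 1 (0.69, edgeR adjusted p 0.00812). In homozygous embryos Dlx1 fell 2.41-fold between the stages (−1.27 ± 0.26, edgeR adjusted p 0.00109), Dlx2 fell 2.14-fold (−1.10 ± 0.21, edgeR adjusted p 0.000891) and Dlx6 fell 1.76-fold (−0.82 ± 0.24, edgeR adjusted p 0.0130), where 15.8% of all tested genes were called lower. The Dlx6 call was lost without homozygous E9.0 replicate 3 or homozygous E9.5 replicate 1 or 3, with adjusted p up to 0.0646. Dlx6os1 was at 1.80, 1.60 and 1.08 CPM in homozygous E9.0 libraries and at 1.75, 2.79 and 2.18 CPM in E9.5 ones, which overlapped (0.59 ± 0.31, edgeR adjusted p 0.157). Dlx5 (−0.52, edgeR adjusted p 0.0638) passed only without homozygous E9.0 replicate 2 (−0.75, edgeR adjusted p 0.00763), and Dlx3 was at 0.17.

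Because linked genes are read in the same library, their ratio needs no scaling, and the 3 pairs were compared as log2 ratios of counts with 2 added to each count. Dlx1 against Dlx2 stood at −0.40, −0.42 and −0.43 in the heterozygous E9.5 libraries, a spread of 0.01 (SD), and at −1.34, −1.85 and −1.87 in the homozygous ones. The homozygous values overlapped those of the 6 E9.0 libraries, which lay between −1.77 and −1.25. The difference between genotypes was −1.27 at E9.5 (exact two-sided permutation p 0.1, the smallest possible; 0.3 after Benjamini-Hochberg adjustment over 6 ratio tests) and 0.04 at E9.0 (exact p 0.8). Dlx5 against Dlx6 moved the other way, standing at −0.37, 0.00 and 0.20 in heterozygous and 0.88, 0.37 and 0.93 in homozygous E9.5 libraries. These did not overlap, with a difference of 0.78 (exact p 0.1, adjusted 0.3), against −0.22 at E9.0 (exact p 0.7). For Dlx3 against Dlx4 the difference was −0.51 at E9.0 (exact p 0.3) and 0.01 at E9.5 (exact p 1.0), and it rests on at most 19 counts of Dlx4. With 3 libraries a group, none of the 6 ratio tests could pass 0.05.

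The antisense RNA of the Dlx5 and Dlx6 locus was also set against its sense partner. With 2 added to each count, Dlx6os1 stood at 0.349 to 0.425 times Dlx6 in heterozygous E9.0 libraries and 1.09 to 1.87 times in heterozygous E9.5 libraries. In homozygous libraries the ratio was 0.295 to 0.588 at E9.0 and 1.06 to 1.46 at E9.5. The ratio was thus higher in every E9.5 library than in every E9.0 library of either genotype, and the genotypes overlapped at each stage.

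**Figure D3:**
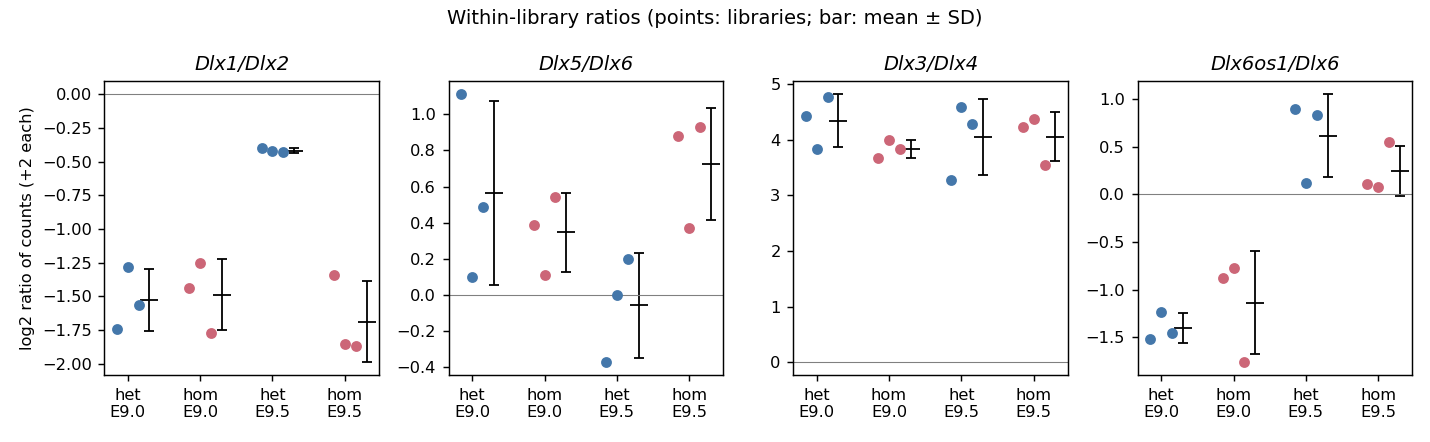
Within-library log2 ratios of counts (vertical axis, 2 added to each count) for the linked pairs and for Dlx6os1 against Dlx6, by group (horizontal axis); points are libraries and bars the mean and SD of 3. The Dlx1/Dlx2 ratio is near −0.4 in heterozygous E9.5 libraries and at −1.25 or lower in the other 9.

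The protein-coding genes that flank the 3 pairs were read as a check of the surrounding loci. Of 12 such genes, 2 on each side of each pair, 10 were tested, and 0 differed between genotypes at either stage by edgeR's adjusted p, where 2 at E9.0 and 1 at E9.5 had an unadjusted p under 0.05, beside 13.3% and 13.4% of all genes, with log2 differences of −0.39 to 0.14 at E9.0 and −0.66 to 0.26 at E9.5. Metap1d, a methionine aminopeptidase 2.9 kb below Dlx1 whose span Dlx1as also overlaps, was at 5.73 CPM in heterozygous and 5.26 CPM in homozygous E9.5 libraries (−0.12 ± 0.12, edgeR adjusted p 0.748).

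Genes known to act upstream of the Dlx genes in the arches were read in the same fit. Of 8 endothelin pathway genes, which induce Dlx5 and Dlx6 in the lower arch, 2 rose and 0 fell at E9.5 and 0 passed at E9.0, where 1.19% of all tested genes were called higher at E9.5. The 2 were Mef2c, a transcription factor of the pathway (0.35 ± 0.08, edgeR adjusted p 0.0400), and Ece1, the enzyme that activates endothelin (0.30 ± 0.07, edgeR adjusted p 0.0424). Both calls were lost without heterozygous replicate 2 (0.37 and 0.28, edgeR adjusted p 0.0880 and 0.140). The ligand Edn1 was at 4.66 against 5.87 CPM (0.33, edgeR adjusted p 0.345) and its receptor Ednra at 18.9 against 20.9 CPM (0.15, edgeR adjusted p 0.550). Of 9 genes of other arch signals, 0 passed edgeR’s adjusted threshold at either stage, and 0 at E9.0 and 1 at E9.5 had an unadjusted p under 0.05. Among them the ligand Fgf8 was at 13.1 ± 2.32 CPM in heterozygous and 9.86 ± 1.38 CPM in homozygous E9.5 libraries (−0.41, edgeR adjusted p 0.163).

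Among 12 transcription factors that pattern the arches with or downstream of the Dlx genes, Barx1 and Lhx8 fell at E9.5, 0 rose, and the median of the list was −0.15, where 0.702% of all tested genes were called lower and 1.19% higher. Barx1, a homeobox gene of tooth-forming and joint mesenchyme, was at 14.1 ± 5.06 against 1.86 ± 0.247 CPM (−2.91 ± 0.28, edgeR adjusted p 0.000146). Lhx8, a LIM-homeobox gene of oral mesenchyme and ventral forebrain, was at 2.33 ± 0.333 against 0.264 ± 0.0937 CPM (−3.09 ± 0.28, edgeR adjusted p 3.42e-05). Without heterozygous replicate 2 both were still called (−3.18 and −3.15). The homeobox gene Alx4 was then called lower too (−0.60, edgeR adjusted p 0.0211, against −0.26 with all libraries). In that fit 4 of the 12 factors were called lower, and the list median was −0.24. The lower-arch factors Hand2 (23.7 against 24.9 CPM, 0.07 ± 0.20) and Hand1 (6.61 against 6.41 CPM, −0.04 ± 0.14) did not pass (edgeR adjusted p 0.935 and 0.946). Of 4 upper-arch genes, with a median of 0.08, the forkhead gene Foxl2 rose at E9.5 (0.87 ± 0.18, edgeR adjusted p 0.0237), a call lost without heterozygous replicate 2 (0.70, edgeR adjusted p 0.0820). In the same list the POU factor gene Pou3f3 was at −0.55 (edgeR adjusted p 0.0522).

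Markers of tissues that express Dlx genes are given beside the members' changes. At E9.5 the median over 8 cranial mesenchyme markers was −0.20, and −0.36 without heterozygous replicate 2. Msx1 was lower (−0.56 ± 0.07, edgeR adjusted p 0.000495, and −0.60 without heterozygous replicate 2) and 7 did not pass the threshold. The markers' summed level ranged from 294 to 442 CPM in heterozygous and 279 to 370 CPM in homozygous libraries. Without heterozygous replicate 2, this sum was 419 and 442 CPM in heterozygous libraries, above every homozygous library. Relative to that sum, Dlx1 was at 1.97% to 2.13% in heterozygous and 0.219% to 0.330% in homozygous E9.5 libraries, and Dlx2 at 2.66% to 2.84% against 0.811% to 1.24%. Dlx5 was at 0.793% to 1.42% against 0.820% to 1.23%, and Dlx6 at 0.873% to 1.42% against 0.437% to 0.947%. Dlx1 and Dlx2 were thus separated between genotypes on this scale too, whereas Dlx5 and Dlx6 overlapped, also without heterozygous replicate 2 (Dlx5 at 0.793% to 1.01% and Dlx6 at 0.873% to 1.03%). Of 6 neural crest markers, Sox10, Foxd3 and Tfap2b were lower at E9.5 (−1.14, −1.80 and −1.15, edgeR adjusted p 0.0148, 0.0148 and 1.99e-05), and the list median was −0.66, beside 0.702% of all tested genes called lower. Without heterozygous replicate 2 the call of Sox10 was lost (−1.02, edgeR adjusted p 0.0555). Summed crest levels were 145 to 191 against 157 to 186 CPM, with much of the sum from Ets1 (77.2 against 102 CPM). Ets1 was at 0.40, and at 0.18 without heterozygous replicate 2. At E9.0 Tfap2b was already lower (−0.78, edgeR adjusted p 0.000773), and the crest sums were 279 to 301 against 244 to 258 CPM, without overlap. Other sums were separated the other way at E9.0, with ectoderm at 306 to 369 against 385 to 414 CPM, endothelium at 227 to 246 against 273 to 281 CPM and placode at 111 to 115 against 117 to 121 CPM. Surface ectoderm (8 markers) was at 288 to 335 CPM in sum in heterozygous and 334 to 417 CPM in homozygous E9.5 libraries, and 7 otic and olfactory placode markers at 91.7 to 95.8 against 106 to 112 CPM. The ectoderm marker Epcam was called higher (0.31 on the log2 scale), but not without heterozygous replicate 2 (0.35, edgeR adjusted p 0.0641). The 6 ventral forebrain markers were at 30.8 to 37.4 against 34.6 to 53.4 CPM, and the 6 endothelial markers at 151 to 211 against 270 to 298 CPM, 5 of them called higher and 4 without heterozygous replicate 2, beside 1.19% of all tested genes. Of the markers of mesenchyme, crest, ectoderm, placode and forebrain, 0 were at 0 in any group, and the part of cell makeup in the Dlx results was not tested.

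**Figure D4:**
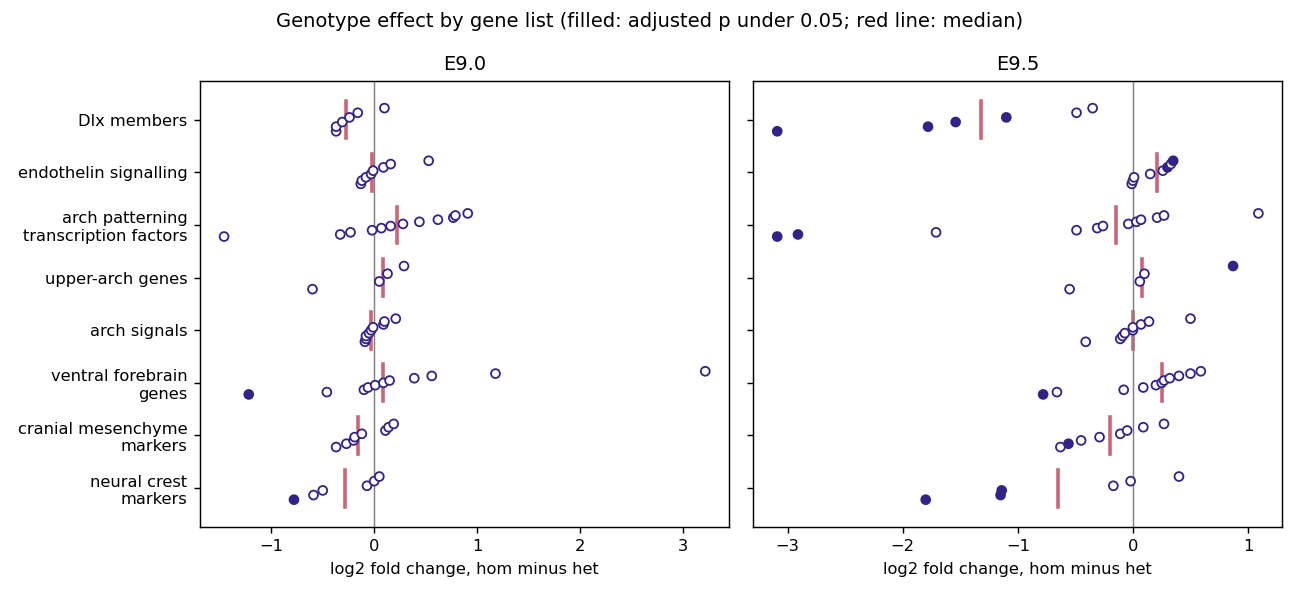
Log2 fold change of homozygous against heterozygous libraries (horizontal axis) for the tested genes of each list (rows), at E9.0 and E9.5; each point is a gene, filled where the adjusted p was under 0.05, and the red line is the list's median. The Dlx members have a median of −1.32 at E9.5, and the arch patterning factors −0.15 with Barx1 and Lhx8 far to the left.

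The genes whose levels followed the Dlx genes most closely were ranked by Pearson's r of log2 CPM over the 12 libraries, which share stage, depth and genotype differences, so the values only describe likeness. For Dlx1 they were Pcsk2 (r = 0.898), Nmral1 (0.871), Sbk1 (0.868), En2 (0.847) and Trub2 (0.842). For Dlx2 they were En2 (0.881), Mthfsd (0.853), Dmbx1 (0.848), Trh (0.841) and Dalrd3 (0.839). By ranks these 5 were less alike, with Spearman's rho from 0.476 for Trh to 0.867 for Dalrd3. Those most like Dlx5 were Dvl2 (0.950), Proser3 (0.941), Ehmt1 (0.917), Ap2a2 (0.916) and BC037034 (0.915), a set that shared no gene with the other 2 sets. Within the family, r was 0.911 between Dlx1 and Dlx2, 0.591 between Dlx5 and Dlx6 and 0.866 between Dlx2 and Dlx6.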

How the data were processed

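RNA was sequenced in 12 libraries, 3 in each of 4 groups. The authors deposited 1 table of raw counts per gene symbol; cutadapt, STAR, featureCounts, MultiQC and the mm10 build are named in the submitters' processing notes, without versions, and the annotation and strand setting are not given in the sources used here. All 12 columns were matched to samples by their labels.

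Tests on the counts used edgeR 4.0.16 under R 4.3.3 (filterByExpr by group, 14810 of 24421 genes kept; TMM factors; robust quasi-likelihood F test with 1 mean per group over all 12 libraries; two-sided; Benjamini-Hochberg over 14810 genes; threshold 0.05). Dlx4 and Dlx1as did not pass the filter. The fit was checked on simulated data. SE is the log2 fold change over the root of F. CPM and within-library log2 ratios (prior count 2) were compared with exact permutation tests in SciPy 1.17.1. RPKM used exon unions of GENCODE M21. Alternatives were other scaling factors, DESeq2 1.42.0, limma-voom (limma 3.58.1), other filters, fewer groups, the replicate number as a block and each library left out. P-values measure the spread between these libraries, since the labels do not say whether embryos were pooled.

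The genes named are all 8 members, Eftud2, Rn45s, flanking genes, list members and the 5 genes most like Dlx1, Dlx2 and Dlx5 (of those with a mean of at least 10 counts). Some list members past the threshold are not reported here. The members and lists were chosen with earlier results of these data known.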

Additional observations from a re-analysis of the deposited data

Results flagged for a closer look

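The genotype effect on Dlx1 differed between the stages by the test of the difference itself. Homozygous minus heterozygous, its log2 difference went from −0.37 at the earlier stage to −3.09 at the later one, an interaction of −2.72 ± 0.32 (edgeR adjusted p 0.00349, n = 3 libraries per group). The call was kept in all 12 fits that left out 1 library (−2.91 to −2.56, adjusted p 0.000389 to 0.0296) and in 10 of 10 other alternatives (−2.93 to −2.70, adjusted p 3.16e-10 to 0.0297). Part of the difference in level lay between the heterozygous groups, at 2.91 ± 0.523 CPM at E9.0 and 7.901 ± 1.498 CPM at E9.5, and part between the homozygous ones, at 2.24 ± 0.238 and 0.914 ± 0.236 CPM (SD).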

How the results depend on the processing

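The E9.5 calls of Dlx1, Dlx2 and Dlx6os1 held in all 11 alternatives and in all 6 fits without 1 library, and that of Dlx6 in 11 and 4. Dlx5 fell between stages in heterozygous embryos when only the groups compared were fitted (adjusted p 0.0393). Leaving out 1 library gave 3 to 4 called members at E9.5, 1 to 2 for the interaction, 2 to 3 for the stage effect in heterozygous and 2 to 4 in homozygous embryos. For the interaction 2 members were called with total counts only, 2 without a filter and 3 with DESeq2 (Dlx2 added in each, and Dlx6os1 with DESeq2), and total counts only gave 4 for the stage effect in heterozygous embryos. Over all genes, 87 were called at E9.0 (216 with DESeq2, 51 with limma-voom, 38 to 86 without 1 library), 280 at E9.5 (123 with total counts only, 448 with DESeq2, 133 to 252) and 10 for the interaction (76 with DESeq2, 5 with limma-voom, 1 to 16), and total counts only gave 3326 against 5238 for the stage effect in homozygous embryos. The causes were not tested. Total counts only put the median of all genes at 0.19 at E9.0, −0.192 for the interaction, and 0.377 and 0.183 between stages in heterozygous and homozygous embryos. With that scaling the log2 difference of Dlx6 at E9.0 was 0.02, below the shift of 0.19, and its group means differed by 0.0372 CPM. The homozygous stage fall of Dlx6 was then −0.65 (edgeR adjusted p 0.0752). Calls in the higher direction made up 73.6% at E9.0, 62.9% at E9.5, 54.4% between stages in heterozygous and 55.3% in homozygous embryos with TMM, and 96.2%, 47.2%, 96.3% and 87.1% with total counts only.

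Values near 0 changed sign. Without 1 library, Dlx3 at E9.0 ranged from −0.41 to 0.03, Dlx6os1 at E9.0 from −0.07 to 0.37, the Dlx5 interaction from −0.26 to 0.22 (0.01 with limma-voom) and the homozygous stage difference of Dlx3 from −0.01 to 0.28. The ratio difference ranged from −0.08 to 0.18 for Dlx1/Dlx2 and from −0.46 to 0.05 for Dlx5/Dlx6 at E9.0, and from −0.38 to 0.28 for Dlx3/Dlx4 at E9.5 (−0.11 with a prior count of 5). At E9.5 those of Dlx1/Dlx2 and Dlx5/Dlx6 stayed between −1.44 and −1.18 and between 0.62 and 0.96. Same-numbered libraries of both genotypes deviated together by r of 0.030 to 0.109, and differently numbered ones by r of −0.196 to 0.171. Not every library correlated best with its own number. With 3 libraries a group, these values cannot settle whether the numbers mark pairs, and the labels do not say that they do. With the replicate number as a block, 69 genes were called at E9.0 and 248 at E9.5. The same number of Dlx members passed in each comparison as without the block. With the longest transcript as length, Dlx5 moved up in every group, above Dlx2 at E9.0 (3.94 against 3.49 RPKM in heterozygous, 3.16 against 2.67 in homozygous libraries) and above Dlx3 at E9.5 (2.79 against 2.20 and 2.18 against 1.57). Counts of at most 19 limit Dlx4 and Dlx1as.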

Other observations

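Genes of different pairs were also compared as counts. With 2 added to each count, Dlx1 stood at 0.452 to 0.688 times Dlx5 in heterozygous E9.0 libraries and 0.393 to 0.673 times in homozygous ones. In heterozygous E9.5 libraries it stood at 1.49 to 2.59 times Dlx5, and in homozygous E9.5 libraries 0.256 to 0.391 times. The heterozygous E9.5 libraries therefore lay above all 9 others in this ratio, and the homozygous E9.5 libraries below all 9 others. The ratio does not correct for gene length (per length, the mean of Dlx1 was below that of Dlx5 in all 4 groups) and was chosen after the values of its members were seen.

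Without a filter on low counts, Dlx1as had a log2 difference of −1.77 ± 0.70 at E9.5 (edgeR adjusted p 0.325) and Dlx4 of −0.83 ± 0.54 (edgeR adjusted p 0.750), neither past the threshold.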
